A study of Mus musculus with 24 samples.

Results

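The duodenum of mice lacking caspase-1 was compared with that of wild-type mice 2 h after an oral load of olive oil. The arrays were chosen by their labels alone: 6 of the 24 arrays of the series carried duodenal RNA, 3 from Casp1-null and 3 from wild-type mice. The other arrays carried jejunum, ileum and liver of both genotypes, and the series concerns the secretion of triglyceride-rich lipoproteins. The Casp1-null line had been crossed back to C57BL/6 over 10 generations. The controls were C57BL/6J mice of the same age and no littermates are described, so the Casp1 genotype and the strain background cannot be told apart. The animals, male and 14 to 16 weeks old, ate chow, were fasted overnight and received 200 µL of olive oil by gavage, after which the epithelium of each gut segment was scraped off. Each array received 100 ng of total RNA with an RNA integrity number above 8.0. The labels do not say whether the 3 arrays of a group came from 3 mice, so p-values measure the spread between these samples.

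Caspase-1 is the protease activated by inflammasomes, assemblies of a sensor protein of the NLR or AIM2 family, usually with an adaptor, and it matures interleukin-1β and interleukin-18. In the duodenum, enterocytes take up fatty acids and monoacylglycerol, rebuild triglyceride in the endoplasmic reticulum and load it onto apolipoprotein B with the microsomal transfer protein, after which chylomicrons leave through the Golgi. The same cells are a first site of drug and steroid metabolism, and Brunner glands, plasma cells and the nearby pancreas and stomach can add transcripts to a scraping.

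Values are log2 expression values, so a difference of 1 is a doubling, and a gene was called when its adjusted p (limma, Benjamini-Hochberg) was under 0.05. Of 18820 genes, 227 (1.21%) were called, 113 (0.6%) higher and 114 (0.606%) lower in Casp1-null duodenum, and 2451 had an unadjusted p under 0.05. The 3 Casp1-null arrays did not overlap the 3 wild-type arrays for 22.7% of all genes, with 11.6% higher and 11.1% lower. The median change over all genes was -0.02. Without wild-type array 2 the count of called genes was 140, and without Casp1-null array 3 it was also 140. Arrays correlated with Pearson's r of 0.9865 to 0.9913 among wild-type and 0.9898 to 0.9909 among Casp1-null arrays, taken over the probe sets of an array, which are no replicates. The segment matched its label: Pdx1, the homeobox gene of proximal duodenum, lay between 9.73 and 10.26 on the 6 arrays, against means of 4.10 in wild-type jejunum and 4.02 in wild-type ileum. Slc10a2, the ileal bile acid transporter, lay between 3.33 and 4.32, under the array medians of 4.874 to 4.959.

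The first wild-type array was rich in exocrine pancreas transcripts. Over 28 measured markers its mean was 8.38, against 5.01 and 4.85 on the other wild-type arrays and 4.77 to 4.93 on the Casp1-null arrays. The carboxypeptidase Cpa1 was 12.04, 4.76 and 4.34 in wild type and 4.10, 5.17 and 4.62 in Casp1-null. The chymotrypsinogen Ctrb1 was 12.36, 4.81 and 4.69 against 4.97, 5.31 and 4.9, and the bile salt lipase Cel was 9.82, 3.26 and 3.36 against 3.09, 3.36 and 3.14. None of the 3 was called (adjusted p = 0.482, 0.527 and 0.435), and without that array their changes were 0.08, 0.32 and -0.11. The list's median was -1.15 with the array and 0.00 without it.

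Rnase1, the pancreatic ribonuclease, was the 1 called of the 28 members of that list (3.57%, against 1.21% of all genes). It had 10.15, 7.53 and 7.34 in wild type and 5.37, 4.74 and 5.51 in Casp1-null (-3.13, SE 0.575, adjusted p = 0.0132). All 3 wild-type arrays lay above the Casp1-null arrays, and without wild-type array 1 it was still called with a smaller change (-2.22, 4.67-fold in place of 8.76-fold, adjusted p = 0.0115). The call was lost without Casp1-null array 2 (adjusted p = 0.0622). Without wild-type array 1, 188 genes were called in duodenum, of which 154 were among the 227. Cyp2c29 and Ugt2b38, highest on that array, remained called without it.

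**Figure D1:**
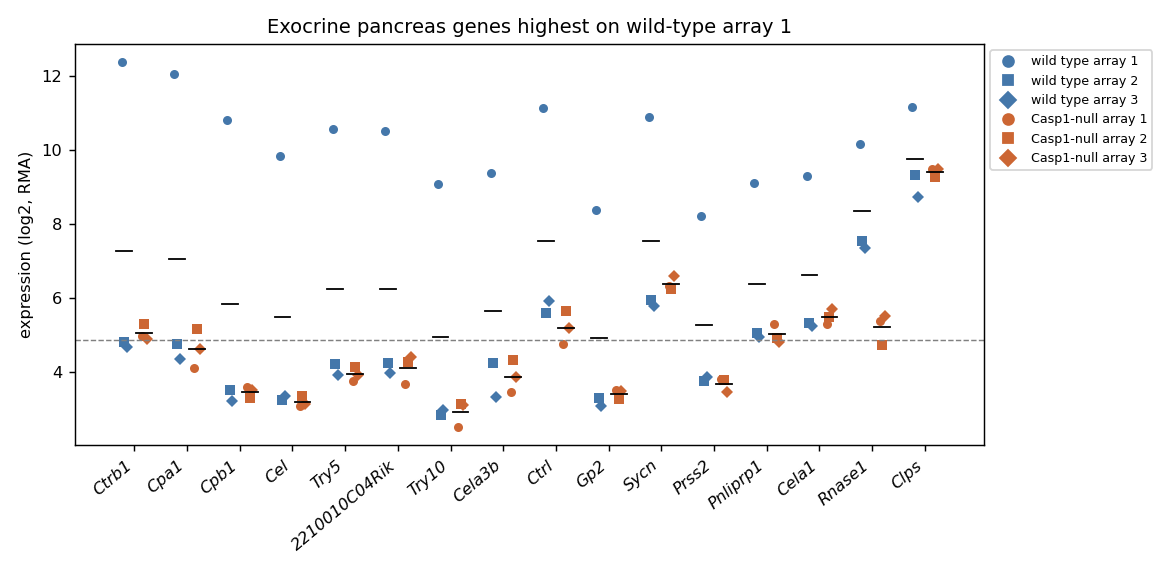
Expression (log2, RMA, vertical axis) of the 16 exocrine pancreas genes that stood highest on wild-type array 1 relative to the other wild-type arrays, chosen after their values were seen, blue for wild type and orange for Casp1-null, with marker shapes for the array number, black bars for group means and a dashed line at 4.874. The blue circles stand apart from the other 5 arrays, as for Cpa1 with 12.04 against 4.10 to 5.17.

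The third Casp1-null array had the highest mean level of the lists of stomach and of Brunner gland markers. Muc6, the gland mucin, was 7.14 on it and 3.38 to 3.76 on the other 5 arrays, Gkn2, a gastric surface protein, was 6.84 against 3.47 to 3.67, and Muc5ac was 5.56 against 3.58 to 3.75. None was called. Over 17 stomach markers the mean was 5.73 there and 4.66 to 4.97 elsewhere, and over 10 Brunner gland markers 5.33 against 4.38 to 4.69. Of those 10, 7 were under the array median in both groups. Bpifb1, also on that list, changed by -0.21 with all arrays and by -0.17 without Casp1-null array 3. Whether the array held stomach, Brunner gland or both was not tested. Psca, a surface antigen also found in stomach epithelium, was the 1 called of the 17 stomach markers (5.88%, against 1.21% of all genes). It rose on all 3 Casp1-null arrays, from 4.48, 4.41 and 4.34 to 7.35, 6.51 and 6.63 (at least 3.75-fold, adjusted p = 0.000166). On Casp1-null arrays 1 and 2 Psca stood at 7.35 and 6.51 while Muc6, Gkn2 and Muc5ac were under the array median. Whether the Psca signal came from stomach tissue was not tested. With wild-type array 1 and Casp1-null array 3 both left out, a comparison added after the data had been seen, 120 genes were called, of which 108 were among the 227. Ctse and Cybrd1, genes of the most proximal duodenum, were also uneven within groups, Cybrd1 at 10.74, 8.32 and 8.58 against 9.90, 10.65 and 12.25 (adjusted p = 0.410).

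**Figure D2:**
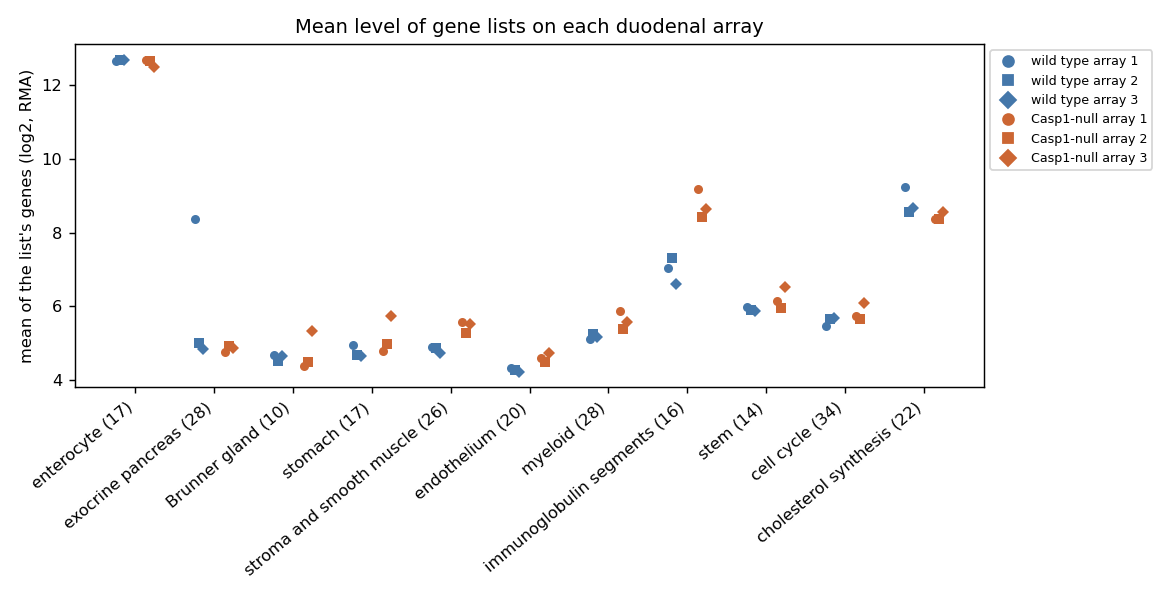
Mean level (log2, RMA, vertical axis) of 11 gene lists on each duodenal array, blue for wild type and orange for Casp1-null, with the marker shape giving the array number and the number of measured genes in parentheses. Wild-type array 1 stands apart for exocrine pancreas (8.38) and Casp1-null array 3 for stomach (5.73), while the immunoglobulin, stroma, endothelium and myeloid means of the groups do not overlap. Means that do not overlap are not particular to these lists. Among lists not drawn, carboxylesterases had 7.52 to 7.69 in wild type against 7.42 to 7.51 in Casp1-null. Fatty acid uptake had 7.83 to 7.90 against 7.95 to 8.02.

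Casp1 itself stood at 8.36, 8.26 and 8.98 on the wild-type arrays and at 6.42, 6.42 and 6.53 on the Casp1-null arrays. The groups were well apart and every array matched its label. The difference was -2.07 (SE 0.226, adjusted p = 0.000166), a 4.21-fold fall. Signal above the array median remained in the Casp1-null duodenum, and the sources do not say whether this probe set covers the sequence that was deleted. Of 18 measured genes nearest to it in the GRCm38.p6 gene order, 8 on one side and 10 on the other, Casp4, which lies beside Casp1, was the only called one.

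Several drug-metabolising enzymes were lower in the Casp1-null duodenum, and for Cyp2c29 and Cbr3 the fall was larger there than in jejunum and ileum. The upstream 250 bases of the genes' start sites (RefSeq, GRCm38.p6, gene strand, 5′ to 3′) are shown for the 3 called genes of drug metabolism with the largest falls. Their common direction follows from that choice, and a shared regulation was not tested. Capitals mark matches to AGGTCA (a nuclear receptor half-site), TGACNNNGC (the core of the antioxidant response element), TATAAA (the TATA box) or GTTAAT (an HNF1 half-site), each searched on both strands. The windows are chr19:39286835-39287084 for Cyp2c29 (plus strand), chr16:93682969-93683218 for Cbr3 (plus strand) and chr5:87424204-87424453 for Ugt2b38 (minus strand).
Cyp2c29: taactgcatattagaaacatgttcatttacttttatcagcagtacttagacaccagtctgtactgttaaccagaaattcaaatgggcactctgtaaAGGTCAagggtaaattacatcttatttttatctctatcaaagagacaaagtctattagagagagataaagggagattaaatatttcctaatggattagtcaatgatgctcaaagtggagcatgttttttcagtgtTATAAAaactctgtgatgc
Cbr3: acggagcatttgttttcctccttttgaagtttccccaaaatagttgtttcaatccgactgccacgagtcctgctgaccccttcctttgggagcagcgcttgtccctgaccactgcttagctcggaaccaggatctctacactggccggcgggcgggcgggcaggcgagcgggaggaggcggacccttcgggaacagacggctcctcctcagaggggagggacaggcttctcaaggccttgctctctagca
Ugt2b38: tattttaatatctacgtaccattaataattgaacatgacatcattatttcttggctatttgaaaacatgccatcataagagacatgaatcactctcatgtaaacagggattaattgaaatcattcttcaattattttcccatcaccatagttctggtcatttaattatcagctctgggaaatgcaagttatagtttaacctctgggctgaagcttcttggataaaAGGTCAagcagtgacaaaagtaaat
AGGTCA was present once in the Cyp2c29 window, 154 to 149 bases before the start, and once in that of Ugt2b38, 25 to 20 bases before it. TATAAA was present in the Cyp2c29 window 19 to 14 bases before the start. The Cbr3 window held none of the 4 motifs. Over all 32851 promoter windows of that length in the table, 14.0% held AGGTCA, 10.2% TGACNNNGC, 12.4% TATAAA and 6.43% GTTAAT.

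Cyp2c29, a cytochrome P450 that oxidises drugs and fatty acids, had 10.83, 9.62 and 7.93 in wild type and 4.08, 3.73 and 4.16 in Casp1-null duodenum. All 3 Casp1-null arrays lay below the array median, and the wild-type arrays were spread, with array 1 highest and array 3 lowest. The difference was -5.47 (SE 0.469, adjusted p = 1.76e-05), and because the lower group was under the array median the fall is given as at least 23-fold. The size rests on single wild-type arrays: it was at least 14.3-fold without array 1 (-4.79) and at least 39.1-fold without array 3 (-6.24). Cbr3, a carbonyl reductase, had 7.30, 6.62 and 6.54 in wild type and 4.0, 4.01 and 4.39 in Casp1-null, a fall of at least 3.68-fold (-2.68, SE 0.210, adjusted p = 6.95e-06). Ugt2b38, a glucuronosyltransferase, had 10.45, 9.10 and 9.19 in wild type and 7.30, 7.72 and 7.40 in Casp1-null, a 4.30-fold fall (SE 0.277 on the log2 scale, adjusted p = 0.000903). On each of these genes wild-type array 1 was the highest array, and the calls held whichever of the 6 arrays was left out.

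In jejunum and ileum none of these 3 genes was called. Cyp2c29 differed by -1.08 in jejunum (adjusted p = 0.391) and by -0.13 in ileum (0.999), Cbr3 by 0.03 (0.987) and -0.21 (0.999), and Ugt2b38 by -0.17 (0.922) and -0.06 (0.999). The duodenal change minus the mean of the other 2 segments was -4.87 for Cyp2c29 (adjusted p = 0.00336) and -2.59 for Cbr3 (adjusted p = 0.000575). For Ugt2b38 it was -1.99 and missed the threshold (adjusted p = 0.0572). Over the 46 measured drug-metabolising P450 genes the mean level was 6.87 to 7.13 on wild-type duodenal arrays. It was 6.27 to 6.55 on jejunal and 5.75 to 6.17 on ileal arrays of both genotypes. Whether low levels in those segments left less room for a fall was not tested.

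Of 46 measured drug-metabolising P450 genes, 2 rose, 2 fell and 42 were not called, and the list's median change was -0.13. That is 8.7% called, against 1.21% of all genes, in a list drawn up with earlier results of these data known. Cyp2c68 fell with 9.50, 9.0 and 9.27 in wild type and 7.87, 7.75 and 7.53 in Casp1-null (-1.54, SE 0.284, adjusted p = 0.0136), and it fell in jejunum (-1.67, adjusted p = 0.00597) and ileum (-1.81, adjusted p = 0.00511) as well. Its duodenal call was lost when wild-type array 1 (adjusted p = 0.0624) or 3 (0.0545) or Casp1-null array 3 (0.0766) was left out. Cyp2c70, an enzyme of muricholic acid synthesis, rose at least 1.14-fold, with 3.83, 3.80 and 3.90 in wild type and 5.98, 4.52 and 4.85 in Casp1-null (1.28, adjusted p = 0.0201), and the call was lost without wild-type array 1 (0.0641), 2 (0.0854) or 3 (0.0645). Cyp2a12 was called higher (2.33, adjusted p = 0.0148), but both group means were under the array median. Casp1-null array 1 alone stood above it at 6.49, without that array the change was 1.52, and the call was lost without wild-type array 2 (0.0541) or 3 (0.0674). Cyp1a1, the P450 induced through the aryl hydrocarbon receptor, was at 8.29 on wild-type array 2 and between 3.69 and 4.54 on the other 5 arrays, and was not called (adjusted p = 0.227). P450 and glucuronosyltransferase genes lie in families of close relatives, so the signal of a probe set may come in part from a relative.

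Of 47 measured genes of phase II conjugation and transport, with reductases such as Cbr3 counted in, 1 rose, 3 fell and 43 were not called. The median was -0.13, and 8.51% were called, against 1.21% of all genes. Beside Cbr3 and Ugt2b38 the fall was that of Gsta3, a glutathione transferase, with 7.30, 7.26 and 7.71 in wild type and 5.62, 5.63 and 5.78 in Casp1-null (-1.75, SE 0.354, adjusted p = 0.0259). Its groups were tight and apart, yet the call was lost whichever array was left out (adjusted p of 0.0606 to 0.110), with a change of -1.60 to -1.83. Tpmt, the thiopurine methyltransferase, rose 3.12-fold, from 8.78, 8.72 and 8.56 to 10.41, 10.37 and 10.21 (adjusted p = 0.00121). Among uncalled members, Nqo1 (-0.61, adjusted p = 0.146), Gstm4 (-0.65, 0.137) and the exporter Abcc3 (-0.89, 0.101) had all 3 Casp1-null arrays below the wild-type range. In this list 19 of 47 members had that order and 4 the opposite one, where 11.1% and 11.6% of all genes did.

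Of 28 measured steroid dehydrogenase genes, 2 fell and 26 were not called (7.14% called, against 1.21% of all genes). Hsd3b3, a 3β-hydroxysteroid dehydrogenase, had 9.78, 9.52 and 9.01 in wild type and 4.68, 4.48 and 4.55 in Casp1-null, a fall of at least 22.6-fold (-4.87, SE 0.225, adjusted p = 4.97e-08). Its relative Hsd3b2 had 6.97, 6.04 and 5.89 against 3.70, 3.42 and 3.49, a fall of at least 2.57-fold (adjusted p = 6.45e-06). Hsd3b3 fell in jejunum (-5.24) and ileum (-5.37) too, and the test of the duodenal change against theirs missed the threshold (0.44, adjusted p = 0.884). The genes are near copies of each other, so their probe sets may share signal.

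**Figure D3:**
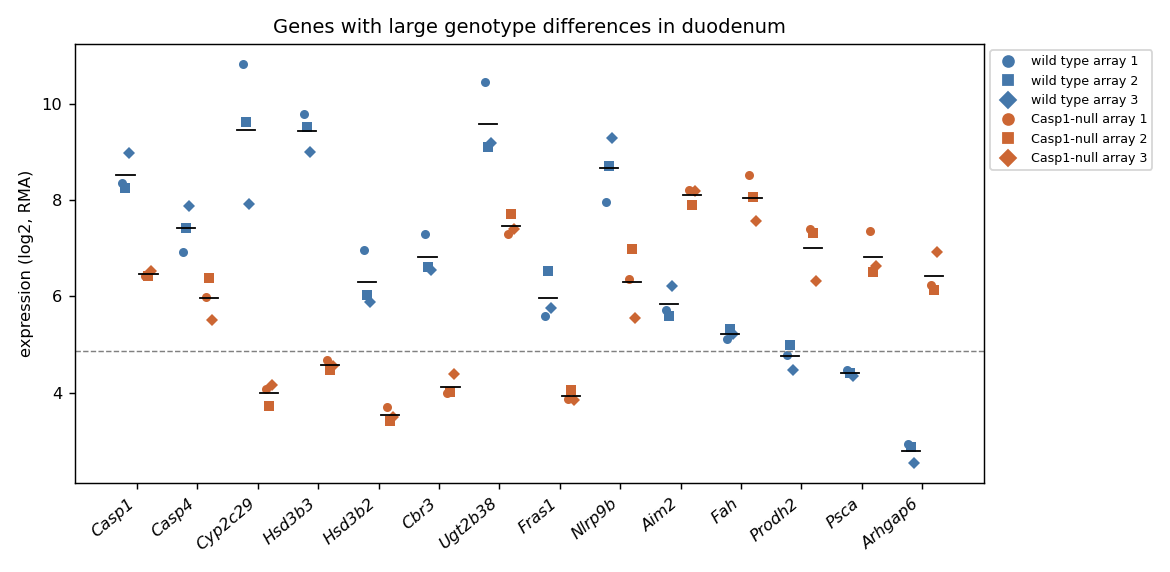
Expression (log2, RMA, vertical axis) of 14 genes on each of the 6 duodenal arrays, blue for wild type and orange for Casp1-null, with the marker shape giving the array number, a black bar for the group mean and a dashed line at the lowest array median (4.874). The genes were chosen among the called ones with their values known, and all 227 called genes have groups that do not overlap. Cyp2c29, Hsd3b3, Hsd3b2, Cbr3 and Fras1 fall below the line in all Casp1-null arrays, and Arhgap6 and Psca rise from below it.

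Inflammasome sensors moved in both directions. Of 30 measured genes of inflammasomes and inflammatory caspases, 1 rose, 4 fell and 25 were not called, with a median of -0.09. The targeted gene Casp1 is 1 of the 4. Called were 16.7%, against 1.21% of all genes. Aim2, the sensor of cytosolic DNA, had 5.72, 5.60 and 6.21 in wild type and 8.22, 7.91 and 8.19 in Casp1-null, a 4.80-fold rise (SE 0.162, adjusted p = 3.29e-06). Its change was 2.26 in duodenum, 1.27 in jejunum and 0.90 in ileum, and the duodenal excess of 1.18 missed the threshold (adjusted p = 0.0572). Nlrc4, which assembles on NAIP proteins that bind bacterial flagellin and secretion needles, fell 2.21-fold, from 9.80, 9.80 and 9.94 to 8.55, 8.82 and 8.74 (adjusted p = 0.00083).

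Nlrp9b, an intestinal NLR described as a sensor of viral RNA, fell 5.14-fold, from 7.97, 8.72 and 9.30 to 6.37, 6.98 and 5.55 (SE 0.403, adjusted p = 0.00726). It has close relatives whose transcripts its probe set may share. Casp4, which encodes caspase-11, had 6.93, 7.43 and 7.88 in wild type and 5.98, 6.38 and 5.51 in Casp1-null (-1.46, SE 0.274, adjusted p = 0.015), and the call was lost without wild-type array 2 (adjusted p = 0.0658) or 3 (0.081) or Casp1-null array 1 (0.0526) or 3 (0.0945). The NAIP genes Naip5 (-0.53, adjusted p = 0.142), Naip2 (-0.40, 0.163) and Naip6 (-0.28, 0.278), which are near copies, were not called, though each had all Casp1-null arrays below the wild-type range. Nlrp6, an NLR of intestinal epithelium, was at 10.06 to 10.44 in wild type and 10.18 to 10.24 in Casp1-null. The effector Gsdmd (-0.25, adjusted p = 0.704) and the adaptor Pycard (0.19, adjusted p = 0.786) had overlapping groups. Nlrp3 lay under the array medians in all 6 arrays, between 3.54 and 3.85. None of 16 measured genes of the interleukin-1 family was called (median -0.01).

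Oasl2, an interferon-induced gene of the oligoadenylate synthetase family, fell 3.51-fold, from 10.02, 10.47 and 10.70 to 8.80, 8.77 and 8.19 (SE 0.265, adjusted p = 0.00214). With all arrays it was the only called one of 38 measured interferon-stimulated genes (2.63%, against 1.21% of all genes). Their median was -0.32, and 31 of the 38 had a change below 0. Wild-type array 3 was high for part of the list: Gbp2 was 9.10 there against 6.40 and 6.77 in the other wild-type arrays, Zbp1 10.06 against 7.81 and 8.65, and without it the median was -0.17. Without wild-type array 1, the lowest wild-type array for these genes, the median was -0.51 and 2 were called, both lower. That fit called 188 of all 18820 genes. Wild-type array 3 was also the highest for epithelial oxidase genes: Duox2 was 4.53, 5.90 and 8.15 in wild type and 4.23 to 4.62 in Casp1-null, and Nos2 was 4.52, 6.81 and 7.41 against 4.32 to 4.45. Neither was called with all arrays (adjusted p = 0.322 and 0.139), but without wild-type array 1 Nos2 was called lower (-2.73, adjusted p = 0.0015). Of the 25 genes measured with them, Lbp, which binds bacterial lipopolysaccharide, was the 1 that passed (4%, against 1.21% of all genes). Lbp rose from 5.09, 5.17 and 4.81 to 6.65, 6.17 and 6.60 (adjusted p = 0.0338). Leaving out any array other than Casp1-null array 2 ended that call (adjusted p of 0.0837 to 0.138). None of 10 MHC class II genes was called with all arrays. Their median was -0.74, but Casp1-null array 2 stood inside the wild-type range, as for Cd74 with 11.60, 11.90 and 12.02 against 10.59, 11.74 and 10.42. Without that array, where 190 of all 18820 genes were called, 6 of the 10 were called lower, Cd74 among them (-1.33, adjusted p = 0.000135), with a median of -1.13. Leaving out any other array gave 0 calls, and without Casp1-null array 3 the median was -0.52.

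No gene of lipoprotein assembly and secretion was called among the 32 measured, and their median was -0.07. Apob, the structural protein of chylomicrons, had 12.59, 12.68 and 12.75 in wild type and 12.72, 12.71 and 12.60 in Casp1-null. The groups overlapped, and the 95% interval of the difference ran from -0.20 to 0.21. Mttp, the large subunit of the microsomal transfer protein, had 12.88, 12.85 and 12.96 against 12.78, 12.75 and 12.70, a difference of -0.15 (interval -0.36 to 0.06, adjusted p = 0.570), with all Casp1-null arrays just below the wild-type range. Apoa1 differed by 0.05 (interval -0.12 to 0.22), Apoa4 by 0.04 (-0.23 to 0.31) and Apoc3 by 0.06 (-0.47 to 0.59). Sar1b, the GTPase of the coat that carries chylomicrons out of the endoplasmic reticulum, differed by -0.03 (interval -0.26 to 0.21). Of the 32 genes 31 had an estimated change smaller than 0.5 in size, and the largest was that of Apoa2 (-0.61, interval -0.98 to -0.23, adjusted p = 0.139). The coat genes Sec23b (-0.30, adjusted p = 0.461) and Sec24c (-0.24, 0.458) were among 10 members with every Casp1-null array below the wild-type range, against 0 above it. Over all genes, 11.1% lay below in this way and 11.6% above.

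**Figure D4:**
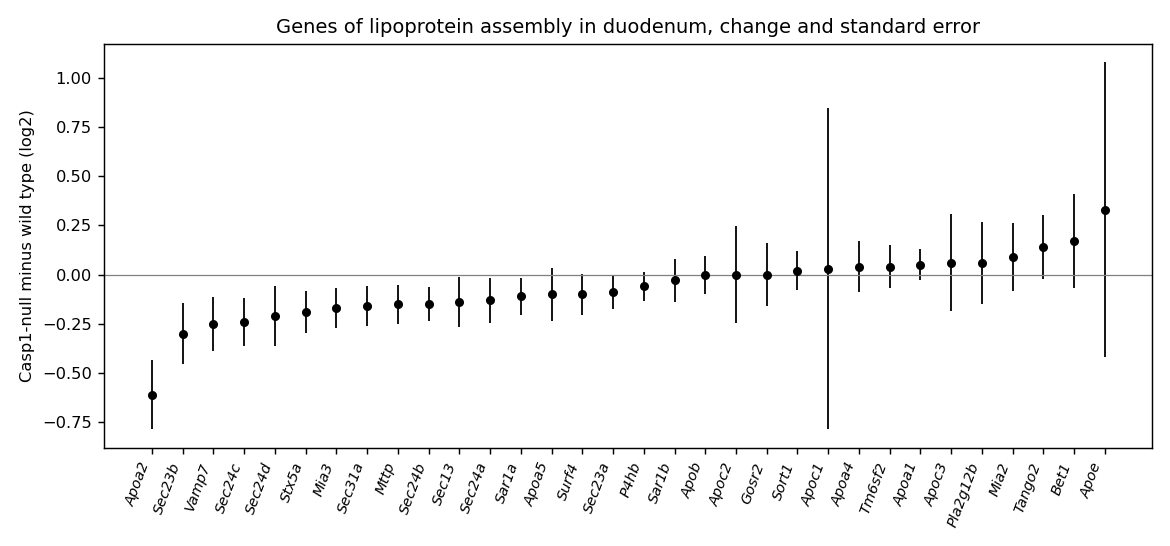
Change in duodenum (Casp1-null minus wild type, log2, vertical axis) of the 32 measured genes of lipoprotein assembly, ordered by value, with the standard error of the fit as bars. The points run from -0.61 (Apoa2) to 0.33 (Apoe), and none was called.

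Other lipid genes were called in small number. Fatty acid oxidation and ketogenesis had 38 measured genes, of which 3 rose and 35 were not called (7.89% called, against 1.21% of all genes). The median was 0.10. Eci1, a mitochondrial enoyl-CoA isomerase, had 9.09, 9.09 and 8.81 against 9.54, 9.82 and 9.87 (0.75, adjusted p = 0.0264). Its relative Eci2 had 8.57, 8.38 and 8.44 against 9.15, 8.73 and 9.21 (0.57, adjusted p = 0.0488). Acadl, the long-chain acyl-CoA dehydrogenase, had 10.12, 10.04 and 10.18 against 10.62, 10.81 and 10.92 (0.67, adjusted p = 0.0342). Each call was lost in 5 of the 6 fits that left 1 out, all but that without Casp1-null array 1 for Eci1 and Acadl and all but that without Casp1-null array 2 for Eci2, with adjusted p of 0.0515 to 0.226. Ppara, the nuclear receptor that drives this pathway, was 8.64, 8.33 and 8.24 in wild type and 9.15, 8.93 and 9.21 in Casp1-null and was not called (0.69, adjusted p = 0.116). Angptl4, the fasting-induced inhibitor of lipoprotein lipase, narrowly missed in duodenum (0.65, adjusted p = 0.0598) and rose in jejunum (1.37, adjusted p = 0.000192) and ileum (1.02, adjusted p = 0.00316).

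Triglyceride synthesis (19 measured, median 0.02), lipid droplets and lipases (21, median 0.01), carboxylesterases (16, median -0.14), fatty acid uptake (19, median 0.09), sterol absorption (13, median 0.03) and fatty acid synthesis (20, median 0.00) held 0 called genes each. Within them the acyltransferase Gpat3 (-0.52, adjusted p = 0.189) and the fatty acid transport protein Slc27a4 (-0.45, 0.192) had every Casp1-null array below the wild-type range. Cholesterol synthesis (22 measured, 0 called) had a median of -0.43. Its level followed wild-type array 1, with a list mean of 9.24 there, 8.55 and 8.66 on the other wild-type arrays and 8.37 to 8.57 on the Casp1-null arrays, and without that array the median was -0.18.

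Among the listed enzymes of tyrosine and proline breakdown 2 rose. Fah, the last enzyme of tyrosine breakdown, had 5.11, 5.33 and 5.23 in wild type and 8.53, 8.07 and 7.56 in Casp1-null, a 7.10-fold rise (SE 0.350, adjusted p = 0.000508). Prodh2, which oxidises hydroxyproline, had 4.79, 5.0 and 4.48 against 7.40, 7.31 and 6.32, a rise of at least 4.18-fold (adjusted p = 0.000184). These were the 2 called of 16 measured genes of tyrosine and proline breakdown (12.5%, against 1.21% of all genes), whose median was 0.16. Hpd, an earlier enzyme of tyrosine breakdown, was not called (0.44, adjusted p = 0.453).

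Of 36 measured genes on a list of the respiratory chain and its partners, Nnt alone was called (2.78%, against 1.21% of all genes). The list is not complete. Outside it, the subunit genes Ndufs5 (-1.21, adjusted p = 0.0111) and Cox6a1 (-0.46, 0.0234) were called lower. The partner genes Coq9 (0.63, 0.000217) and Cox18 (0.88, 0.00124) were called higher. Nnt, the mitochondrial transhydrogenase that makes NADPH, rose from 7.71, 7.75 and 7.39 to 9.01, 9.01 and 9.13 (1.43, SE 0.123, adjusted p = 1.76e-05), with rises of 1.51 in jejunum and 1.24 in ileum. C57BL/6J mice are known to carry a deletion in Nnt, and the controls were labelled with that substrain. A second Nnt probe set was at 6.24 in wild type and 6.07 in Casp1-null and was not called (adjusted p = 0.530). Whether the Casp1-null line carries that deletion was not tested.

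Cell cycle genes had a median of 0.29 over 34 measured, 29 of them with a change above 0. The 2 that passed the test (5.88%, against 1.21% of all genes) both fell. Rrm2, the small subunit of ribonucleotide reductase, had 8.22, 7.28 and 7.15 in wild type and 5.14, 5.57 and 6.06 in Casp1-null, a 3.89-fold fall (adjusted p = 0.00113), while in jejunum (-0.30) and ileum (-0.54) it was not called. Pttg1, securin, fell from 6.43, 6.43 and 6.49 to 5.60, 5.62 and 5.69 (adjusted p = 0.00419), and fell in jejunum and ileum too. The replication helicase Mcm6, with 7.13, 6.69 and 6.51 against 7.61, 7.67 and 8.12, was not called (1.02, adjusted p = 0.101). Casp1-null array 3 was highest for the list, with a mean of 6.10 against 5.47 to 5.73 on the other 5 arrays, and without it the median was 0.14. The stem cell marker Olfm4 was 5.91, 6.34 and 6.36 against 7.81, 6.76 and 8.62 (adjusted p = 0.327), again highest on that array.

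All 16 measured immunoglobulin genes had a change above 0, with a median of 1.62. In 13 every Casp1-null array was above the wild-type range, an order found in 11.6% of all genes. Igkv6-20, a kappa variable segment, had 6.74, 7.48 and 5.97 in wild type and 11.29, 11.18 and 9.98 in Casp1-null, a 17.0-fold rise (SE 0.761, adjusted p = 0.0145). A second kappa variable segment had 8.35, 7.59 and 7.10 against 11.44, 10.13 and 10.15, a 7.45-fold rise (adjusted p = 0.0148). These 2 were the called ones with all 18 arrays fitted (12.5% of the list, against 1.21% of all genes). The fit of the duodenal arrays alone called 7, all higher, and fits that left 1 array out called 0 to 2. Over all 18820 genes these fits called 167 and 140 to 190. The 2 calls were lost without wild-type array 3 (0.0784 and 0.081), without Casp1-null array 1 (0.0692 and 0.0784), and, for Igkv6-20, without Casp1-null array 2 (0.0616) or, for the second segment, without wild-type array 2 (0.0669). Jchain, the joining chain of secreted IgA, had 8.90, 8.92 and 8.29 against 11.01, 10.47 and 10.48 (1.95, adjusted p = 0.0545), and Igha, the IgA heavy chain, had 9.12, 9.25 and 7.87 against 11.79, 11.01 and 10.57 (2.38, adjusted p = 0.107). With the duodenal arrays alone Jchain was called (adjusted p = 0.0174). Variable segments are near copies of each other, so the probe sets may share signal. In jejunum the list's median was 1.48 and in ileum -0.58. In such bulk samples a larger number of plasma cells and more RNA per cell cannot be told apart.

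Markers of other mucosal cells are given beside the immunoglobulin genes. Over all genes, 11.6% had every Casp1-null array above the wild-type range and 11.1% below. Of 19 measured B and plasma cell markers, Jchain among them, 0 were called, 11 were higher and 8 lower, 6 had every Casp1-null array above the wild-type range and 2 below, and the median was 0.13. Their mean level was 5.16 to 5.35 on wild-type and 5.53 to 5.79 on Casp1-null arrays, and 10 of the 19 were under the array median in both groups. Of 28 measured myeloid markers 0 were called and 14 had every Casp1-null array above the wild-type range, 0 below. The list's mean level was 5.11 to 5.24 on wild-type and 5.40 to 5.88 on Casp1-null arrays, and Lyz2, lysozyme of macrophages, had 7.16, 7.09 and 6.96 against 9.58, 8.08 and 8.88 (1.77, adjusted p = 0.0766). Without Casp1-null array 2 Lyz2 was called (2.16, adjusted p = 0.0421), 1 of 2 myeloid markers that then rose. That fit called 190 of all 18820 genes. Of 26 stroma and smooth muscle markers 0 were called, 17 had that order and 1 the opposite one, and the mean level was 4.75 to 4.89 against 5.28 to 5.59. The fibroblast receptor Pdgfra, for one, was 4.24, 4.05 and 4.04 against 6.68, 5.44 and 6.26 (adjusted p = 0.281). Endothelial markers (20 measured, 0 called) had means of 4.23 to 4.32 against 4.49 to 4.73. Enterocyte markers (17 measured, 0 called) had means of 12.64 to 12.69 against 12.49 to 12.69. Of 28 T cell and intraepithelial lymphocyte markers Klrb1c alone was called, lower (3.57%, against 1.21% of all genes). Both its groups were under the array median, and the call was lost when Casp1-null array 3 (0.0558) or wild-type array 2 (0.0541) was left out. The part of these cells in the other results was not tested.

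Among the remaining large rises, Arhgap6, a gene on the X chromosome, had 2.93, 2.87 and 2.54 against 6.23, 6.13 and 6.93, a rise of at least 2.84-fold (adjusted p = 1.8e-05), with like changes in jejunum (3.49) and ileum (3.86). Hddc3, a metal-dependent hydrolase, rose 4.65-fold from 7.15, 6.95 and 7.25 to 9.31, 9.39 and 9.30 (SE 0.136, adjusted p = 5.54e-07). Pyroxd2, a mitochondrial oxidoreductase, rose 5.13-fold (adjusted p = 1.8e-05) and Fam183b 4.88-fold (adjusted p = 2.65e-05). Mboat2, a lysophospholipid acyltransferase, rose at least 3.02-fold, from 4.82, 4.23 and 4.34 to 7.02, 5.80 and 6.74 (adjusted p = 0.00434). The adhesion receptor Adgrl2 rose 3.09-fold (adjusted p = 0.00742), and all of its other 7 probe sets rose too. Ppfibp1 (1.98), Htra4 (1.68) and Them6 (1.68) rose, Zfp791 rose at least 2.00-fold and Exd1 at least 2.13-fold, and each kept its call whichever array was left out. Wfdc17 (1.95, adjusted p = 0.0297) lost it in 5 of 6 such fits, all but that without Casp1-null array 2 (0.0554 to 0.138).

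Among the remaining large falls, Camk2b, a calmodulin-dependent kinase subunit, had 8.41, 8.25 and 7.84 against 6.29, 5.95 and 6.01 (4.24-fold, adjusted p = 3.29e-06). Myo7a, an unconventional myosin, fell 3.53-fold, from 7.52, 8.21 and 8.11 to 6.08, 6.15 and 6.14 (adjusted p = 0.000226). Cfi, the complement regulator factor I, fell at least 1.64-fold (adjusted p = 0.000172). Fras1, an extracellular matrix protein of basement membranes, had 5.60, 6.53 and 5.76 against 3.88, 4.06 and 3.86, a fall of at least 2.04-fold (adjusted p = 2e-05). Rec8, a meiotic cohesin subunit (-1.81, adjusted p = 0.00161), the growth factor Pdgfc (-1.67, 0.0102), the secreted protein C1qtnf12 (-1.56, 0.0042) and the ribosomal protein gene Rpl34 (-1.60, 6.95e-06) fell as well and kept their calls whichever array was left out. Aplp1, a relative of the amyloid precursor protein (-1.79, 0.00939), lost its call without wild-type array 2 (0.0534) or 3 (0.0546) or Casp1-null array 3 (0.0626). Rpl34 has many processed copies in the genome, so its value is uncertain.

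Many duodenal changes recurred down the gut. Of the 227 called genes, 130 were called in jejunum in the same direction, 57.3% of the duodenal and 33.6% of the 387 jejunal calls, and 74 in ileum, 32.6% of the duodenal and 44.0% of the 168 ileal calls. Called genes made up 2.06% of all genes in jejunum and 0.893% in ileum. None of the 227 was called in the opposite direction in either. In all 3 segments 72 were called, with a median size of 1.09 in duodenum, and 95 were called in duodenum alone, with a median size of 0.77. A call in duodenum alone is not a difference between segments: measured in the duodenal direction, those 95 had a median of 0.30 in jejunum and 0.18 in ileum, and 83 and 78 of them had the same sign there.

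**Figure D5:**
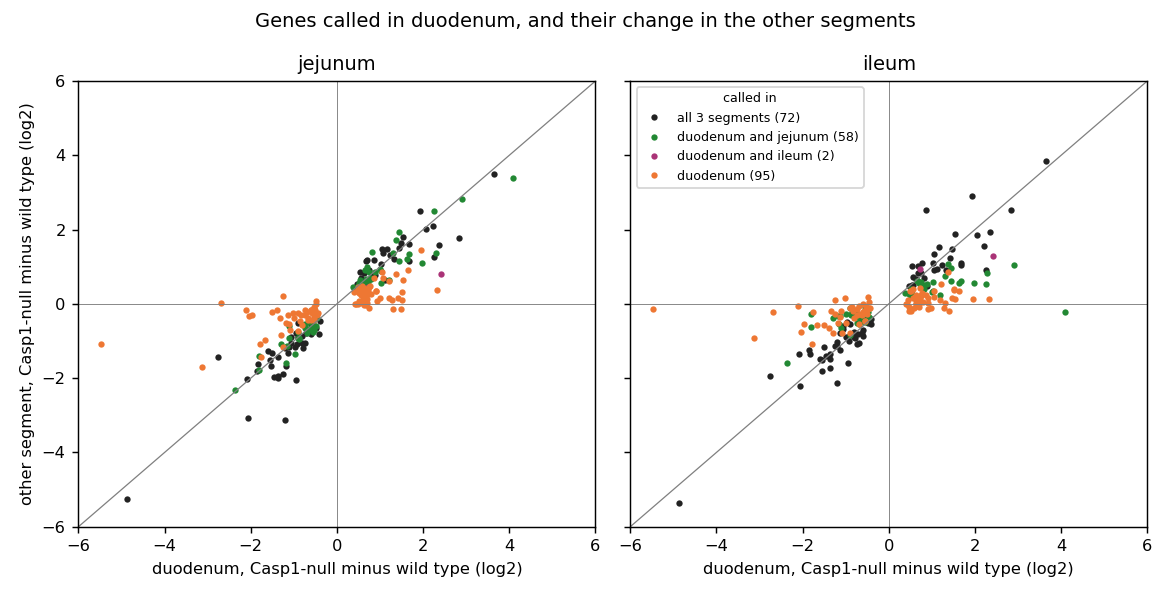
Change of the 227 called genes in duodenum (horizontal axis, Casp1-null minus wild type, log2) against the change in jejunum (left) and ileum (right), with colours for the segments in which each gene was called and a line of equal change. Black points are the 72 genes called in all 3 segments, and Cyp2c29 (-5.47) and Cbr3 (-2.68) lie near 0 on the vertical axis in ileum.

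The difference between segments was tested directly. For 10 genes (0.0531% of all) the duodenal change differed from the mean change of jejunum and ileum, and 1079 genes had an unadjusted p under 0.05. Against ileum alone 13 genes (0.0691%) differed, and against jejunum alone 10. Of the 10, 6 were also called in duodenum. Beside Cyp2c29, Cbr3 and Fras1 these were Pzp, Fbxw9 and Tdpoz2. For the genes that fell, whether low levels in jejunum and ileum limited the change there was not tested. Pzp, a broad protease inhibitor of the α2-macroglobulin family, had 6.12, 5.93 and 6.18 in wild type and 4.72, 4.9 and 4.89 in Casp1-null duodenum, a fall of at least 2.20-fold, against changes of 0.21 in jejunum and 0.11 in ileum (adjusted p = 0.000575 for the difference). Fbxw9, an F-box protein, fell 2.01-fold in duodenum, from 8.10, 8.15 and 8.25 to 7.15, 7.20 and 7.12, and changed by -0.25 and 0.17 in the others (0.0118). Tdpoz2 rose at least 1.82-fold from background in duodenum, from 4.47, 4.24 and 4.2 to 5.80, 6.22 and 5.35, and by -0.15 and 0.17 elsewhere (0.0168).

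The test of the difference missed the threshold for Fbxw9 when array 3 of either genotype was left out (0.0501 for wild type and 0.0584 for Casp1-null), without Casp1-null array 1 or 3 it did for Fras1 (0.0912 and 0.1), and without Casp1-null array 1 or wild-type array 2 or 3 it did for Tdpoz2 (0.0634, 0.0713 and 0.0648).

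The other 4 genes were not called in duodenum. Ciapin1, a protein of cytosolic iron-sulfur assembly, was lower by 0.36 in duodenum, not called (adjusted p = 0.0639), and rose by 0.60 in jejunum and 0.79 in ileum (0.000575 for the difference of -1.05). Pik3ap1, an adaptor of phosphoinositide 3-kinase, differed by 0.01 in duodenum and fell by 2.96 in ileum (0.00411). The gene ccdc198 was under the array median in both duodenal groups and fell by 4.88 in ileum (0.00336). Pglyrp1, a peptidoglycan recognition protein, was 8.16, 8.45 and 8.74 against 8.41, 8.50 and 8.63 in duodenum and fell by 1.65 in jejunum (0.0443), and that test missed the threshold without any one array except wild-type array 3 (0.0806 to 0.195).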

How the data were processed

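Transcripts were measured on single-colour whole-transcript Affymetrix arrays. The authors deposited 1 log2 value for each probe set and array, which per the submitters' processing notes came from robust multi-array averaging (RMA, version not given in the sources used here), and nothing further was done to them. Of 35556 probe sets, 21218 carried 1 gene symbol, 1881 several and 12457 none in the platform annotation. Of several probe sets for a gene, that with the highest average over the 24 arrays was kept (18820 genes, 1386 with more than 1 probe set). Gene IDs of 21185 probe sets were found in the GRCm38.p6 table, used for names and gene order only.

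Limma 3.58.1 in R 4.3.3 (lmFit, eBayes without trend) was fitted to 18 intestinal arrays as 6 groups, with 12 residual degrees of freedom, so the spread was pooled over segments. P-values are two-sided and adjusted by Benjamini-Hochberg over all 35556 probe sets. An exact permutation test of 3 against 3 cannot give a p below 0.1, and the number of arrays limits the precision. A group mean under the lowest duodenal array median (4.874) was read as background, and the fold is then a lower bound against each array's value or median, whichever was higher. The fit was tested on simulated data. Figures were drawn with matplotlib 3.10.9.

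Genes, lists (52, 21 of them cell type markers) and alternatives were chosen with earlier results of these data known. Named genes were Casp1, the 20 largest called rises and falls whose groups did not overlap, called list members and up to 4 uncalled ones per list, the 10 smallest interaction p-values and all members of 3 lists, of which the text gives a part. Alternatives covered the arrays fitted, the eBayes settings, filters, scaling, array weights, a replicate block, the probe set rule, thresholds and leaving out arrays.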

Additional observations from a re-analysis of the deposited data

Results flagged for a closer look

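For 10 genes the change between genotypes in duodenum differed from the mean of the changes in jejunum and ileum by a test of the difference itself (limma, adjusted p under 0.05). The duodenal change was the lower one for Cyp2c29 (-4.87), Cbr3 (-2.59), Fras1 (-1.48), Pzp (-1.40), Ciapin1 (-1.05) and Fbxw9 (-0.97). It was the higher one for ccdc198 (2.76), Pik3ap1 (1.68), Tdpoz2 (1.47) and Pglyrp1 (1.13). Single arrays far from their group were not tested for, since every group holds 3 arrays.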

How the results depend on the processing

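With all 18 intestinal arrays 227 genes were called. The count was 167 with the duodenal arrays alone and 69 with these and without wild-type array 1, where fewer arrays were fitted. It was 120 without wild-type array 1 and Casp1-null array 3, an alternative chosen after seeing the data. It was 363 with array weights (the cause was not tested), 29 for a tested change above 1.5-fold, 114 at an adjusted p under 0.01 and 373 under 0.1. Leaving out 1 array gave 140 to 190 called genes, and 7 to 18 in place of 10 for the difference from jejunum and ileum. Same-numbered duodenal arrays of the genotypes had deviations from their group means with correlations of -0.08, 0.02 and -0.09. With 3 arrays in a group these deviations depend on each other, so the values cannot decide whether the numbers pair the genotypes. The labels do not say whether same-numbered arrays of different segments came from 1 mouse: within a genotype their correlations with the duodenal arrays ran from -0.08 to 0.23 over 12 pairs, against -0.22 to 0.24 over 24 pairs of different number. A replicate block gave 202 called genes as a fixed and 231 as a random term (genotype and number), and 9 and 12 for the difference between segments. Of 54 called genes named by symbol, 39 were called whichever array was left out, 38 with the duodenal arrays alone and 26 under every alternative tried. Signs turned only among uncalled genes. Quantile normalization gave -0.04 for Apoa4, -0.05 for Pik3ap1 and 0.01 for Sar1b, and for Apob median centring gave -0.01 and array weights 0.00. With the duodenal arrays alone and without wild-type array 1 the change was -0.04 for Apob, 0.08 for Cpa1, 0.32 for Ctrb1, -0.08 for Pglyrp1, -0.05 for Pik3ap1, -0.06 for Pycard and 0.01 for Sar1b. Without wild-type array 1 and Casp1-null array 3 it was 0.00 for Apob, 0.09 for Cpa1, 0.39 for Ctrb1, -0.01 for Muc5ac, -0.16 for Muc6, -0.15 for Pglyrp1, -0.04 for Pik3ap1, -0.18 for Pycard and 0.02 for Sar1b. Leaving out each array in turn gave -0.04 to 0.04 for Apob, -0.05 to 0.18 for Apoc3, -3.77 to 0.08 for Cpa1, -3.52 to 0.32 for Ctrb1, -0.19 to 1.70 for Muc6, -0.17 to 0.02 for Nlrp6, -0.08 to 0.20 for Pglyrp1, -0.05 to 0.05 for Pik3ap1, -0.06 to 0.32 for Pycard and -0.07 to 0.01 for Sar1b. Genes under the array median in both groups have no usable fold.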

Other observations

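Chosen after its values were seen, Bmp2, a signalling ligand of the villus, fell from 8.67, 8.91 and 9.14 to 7.59, 7.95 and 7.42 (limma, adjusted p = 0.0447) and was called in duodenum alone, but leaving out any of the 6 arrays ended the call (0.0569 to 0.197). By chromosome, the share of measured genes called was highest on chromosome 3, with 19 of 886 (2.14%, 4 rose and 15 fell), and among autosomes lowest on chromosome 10, with 1 of 874 (0.114%).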
